A study of Mus musculus with 14 samples.

Results

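Open chromatin at the ends of protein-coding genes was examined in mouse blood stem and progenitor cells, in 11910 regions whose mean deposited value over 14 ATAC-seq libraries was at least 100 and which lay within 1 kb of either bound of a RefSeq protein-coding gene on chromosomes 1 to 19. They made up 47.4% of the 25129 regions of that level, out of 705361 regions in all. The remaining regions of that level comprised 7844 inside genes but farther from their ends, 4873 outside protein-coding genes and 502 not on chromosomes 1 to 19. No comparison between groups was used to choose the regions, although the minimum level was computed from the same 14 libraries.

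The study asks how mutations in Dnmt3a, a DNA methyltransferase gene, and Npm1, a gene for a nucleolar protein, act together on the way from clonal haematopoiesis to myeloid malignancy. Cells were MPP3, multipotent progenitors biased towards myeloid output, and long-term haematopoietic stem cells (LT-HSC), on the C57BL/6J strain. In each cell type the donors were Dnmt3a-flR878H/+;Npm1-frt/+ (called Dnmt3a;Npm1 here), Npm1-frt/+ (Npm1, written Npm1c in the titles), Dnmt3a-flR878H/+ (Dnmt3a) or WT (Mx-Cre). Of the 8 groups, 6 had 2 libraries, and MPP3 Dnmt3a;Npm1 and LT-HSC Dnmt3a had 1 each. Young donors gave 1000000 whole bone marrow cells to young CD45.1 hosts after lethal irradiation. Hosts of every group, WT included, were given poly(I:C) 4 weeks later and tamoxifen 4 weeks after that, and marrow was sorted 4 weeks after the tamoxifen. Mx-Cre is driven by an interferon-responsive promoter that poly(I:C) switches on, so recombination is not limited to stem cells. The labels do not say whether marrow was pooled or whether replicates came from separate animals, so a p-value here reflects only how these libraries vary, and that variation may be technical.

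In ATAC-seq a transposase cuts and tags accessible DNA, and the strongest signal usually lies at gene starts, where promoters are kept free of nucleosomes. Many mammalian promoters lie in CpG islands, stretches rich in unmethylated CG pairs that are open in most cell types, whereas promoters poor in CG are more often open in particular cell types. Gene ends on the 3′ side are less often accessible, and signal there can come from enhancers, from the start of a neighbouring gene or from transcription passing through.

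The RefSeq promoters of 4 regions that lead the results are shown first, because they differ in base composition and in behaviour. Each runs from 250 bases before to 50 bases after the gene start, 5′ to 3′ on the gene's strand, from RefSeq build GRCm38.p6 (mm10). Capitals mark matches to 1 of 12 short motifs searched on both strands: the GC box with the letters GGGCGG (on the other strand CCGCCC), the CCAAT box (on the other strand it reads ATTGG), the ETS motif with CCGGAAG, NRF1 with GCGCATGC, YY1 with AAGATGGC, CRE with TGACGTCA, the E-box with CACGTG, the TATA box spelled as TATAAA, the motif of GATA factors spelled as AGATAA, RUNX with TGTGGT, AP-1 with TGACTCA, and PU.1 with GAGGAAGT. Tab2, at chr10:7956074-7956373 on the minus strand, had the smallest spread between replicates. Obsl1, at chr1:75506403-75506702 on the minus strand, led the regions lower in MPP3 than in LT-HSC. Sec62, at chr3:30792626-30792925 on the plus strand, led the regions lower in LT-HSC Npm1 than in LT-HSC WT. Zfp644, at chr5:106696476-106696775 on the minus strand, led the regions higher in LT-HSC Dnmt3a;Npm1 than in LT-HSC Npm1.
Tab2: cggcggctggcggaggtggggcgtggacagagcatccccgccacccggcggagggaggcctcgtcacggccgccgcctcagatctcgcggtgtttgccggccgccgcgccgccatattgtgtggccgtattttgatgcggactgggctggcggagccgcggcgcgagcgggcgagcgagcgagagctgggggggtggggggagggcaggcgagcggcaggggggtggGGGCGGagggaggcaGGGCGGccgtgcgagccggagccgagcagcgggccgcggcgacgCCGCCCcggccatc
Obsl1: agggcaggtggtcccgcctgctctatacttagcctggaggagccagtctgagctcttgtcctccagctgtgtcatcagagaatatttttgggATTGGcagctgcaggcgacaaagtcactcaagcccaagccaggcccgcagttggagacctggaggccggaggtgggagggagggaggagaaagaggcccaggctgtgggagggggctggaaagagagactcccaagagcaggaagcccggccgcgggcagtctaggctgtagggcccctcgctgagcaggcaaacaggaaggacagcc
Sec62: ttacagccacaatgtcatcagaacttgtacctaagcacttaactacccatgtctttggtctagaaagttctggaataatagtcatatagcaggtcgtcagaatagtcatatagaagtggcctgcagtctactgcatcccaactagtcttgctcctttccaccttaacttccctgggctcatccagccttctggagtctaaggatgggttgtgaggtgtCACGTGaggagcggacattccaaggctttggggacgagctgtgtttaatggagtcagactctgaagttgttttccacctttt
Zfp644: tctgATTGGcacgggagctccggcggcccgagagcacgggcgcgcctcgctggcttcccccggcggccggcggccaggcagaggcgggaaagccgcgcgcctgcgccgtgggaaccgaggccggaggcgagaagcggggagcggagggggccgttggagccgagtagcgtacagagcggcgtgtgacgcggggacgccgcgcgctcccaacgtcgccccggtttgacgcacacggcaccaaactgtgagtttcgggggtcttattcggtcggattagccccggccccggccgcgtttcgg
The Tab2 promoter held 78.0% G and C, 44 CG pairs and 3 GC boxes, and its ratio of observed to expected CG pairs was 1.02. The Zfp644 promoter held 73.3% G and C and 47 CG pairs, with a ratio of 1.18 and 1 CCAAT box. The Obsl1 and Sec62 promoters were poor in CG pairs, with 8 and 4 of them and ratios of 0.29 and 0.25; Obsl1 had 1 CCAAT box and Sec62 had 1 E-box. Promoters of Hjurp, Lpo, Ifi30 and Ptgir, which also lead a result, are named only.

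The 14 libraries held a total signal of 14683769 to 28748205 in the authors' scaled units, and 15.67% to 51.61% of it lay in the 25129 regions. The LT-HSC Npm1 libraries stood apart, with the lowest shares, 19.48% and 15.67%, and results that rest on them are also given without them or with that share as a covariate. MPP3 Dnmt3a followed, at 22.29% and 26.58%, and MPP3 WT B had the highest share. The read depth behind the values is not given, so no counting interval is given.

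The markers of each cell type were read at gene ends. All 13 regions at 10 MPP3 and myeloid marker genes had a positive difference of MPP3 from LT-HSC, and their summed normalized signal was 3330 to 5250 in the 7 MPP3 libraries, against 2080 to 4030 in the 7 LT-HSC libraries. The 2 highest LT-HSC sums, 4033 and 4011, were those of LT-HSC Npm1 A and B, and the other 5 were at most 2559. LT-HSC markers gave sums of 2170 to 2810 in MPP3 and 2220 to 2960 in LT-HSC over 9 regions, ranges that overlapped, and no region at Slamf1 or Vwf reached the minimum level. Of other cell types, B cell markers had 1 region, T and NK cell markers 2, niche markers 2, and mast cell, basophil and eosinophil markers 0. Erythroid and megakaryocyte markers summed to 2130 to 2720 in MPP3 and 2300 to 3380 in LT-HSC over 7 regions. In bulk samples, fewer cells with an open region and less signal per cell cannot be told apart.

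Gene-end regions were mostly gene starts. By strand, 7717 regions lay at starts only, 788 at both a start and an end, 737 at ends only, and 2668 at genes whose strand the promoter table does not give. The bound was touched by 10071 regions. The regions covered 12089 of 20661 autosomal protein-coding genes, 10188 of them through 1 region and 1901 through 2 or more, with at most 5 at 1 gene. As 2205 regions were near 2 or more genes, a gene name here marks position only.

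Signal was higher at gene ends than elsewhere among the regions tested. The median of the mean deposited value was 303.4 at gene ends (quartiles 183.4 and 475.1), against 149.4 in the other autosomal regions (118.1 and 218.1). Gene-end regions were somewhat wider, with medians of 1511 and 1239 bp. Per kb of region the median value was 208 at gene ends, against 131 inside genes and 136 outside genes. The minimum level cut a continuous range, with 457 gene-end regions at mean values of 100 to 110 and a further 574 at 90 to 100 that were left out; the lowest value kept was 100 and the highest left out 99.93. By distance, 163 kept regions lay in the outermost 10% of the 1000 bp allowed.

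Starts and ends differed in level. Per kb, regions at ends only had a median value of 117 (quartiles 90.1 and 156), against 225 at starts only (157 and 296). Regions near the starts of 2 or more genes, which include shared promoters, had the highest median per kb, 271, against 216 near 1 start. Along the gene, the median summed value was 401.1 for regions centred 250 to 500 bases before the start and 313.9 for the 2920 centred in the 250 bases after it, and it was 146.7 for those 1000 to 2000 bases before it. Around ends it stayed between 154.4 and 181.9 in every distance class.

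Base composition of the promoter went with level. A promoter window overlapped 7966 regions (66.9%) by 150 bp or more, with a median G and C content of 62.7% and a CG ratio of 0.8, against 53.0% and 0.39 over all 31396 windows of the autosomal table. Regions with a CG ratio of 0.75 or more had a median value of 251 per kb (4669 regions), against 161 per kb where the ratio was under 0.5 (966 regions). The GC box was in 71.7% of the windows at these regions, against 36% of all windows, and the ETS motif in 18.9%, against 9.0%. The CCAAT box was about as frequent in both, at 37.9% and 37.3%. The TATA box (6.1%, against 13.6%), the GATA motif (4.9%, against 11.2%) and the RUNX motif (11.5%, against 16.7%) were less frequent. The NRF1 motif was in 5.7% (2.7% of all windows), YY1 in 4.5% (2.7%), CRE in 3.6% (1.8%), the E-box in 10.7% (7.1%), AP-1 in 2.8% (5.3%) and PU.1 in 2.9% (3.2%). Richness in G and C alone changes how often a G- or C-rich motif occurs, and neither share was corrected for it.

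The 6 regions of highest summed value were wide, at 3829 to 45047 bp, against a median of 1511 bp over all gene-end regions. A region of 45047 bp at the ends of Hjurp, the gene of a chaperone of centromeric histone, and Mroh2a (chr1:88225327-88270374) had a mean value of 10645.6, or 236 per kb. Beside it lay the second highest, of 20019 bp at the Hjurp start (chr1:88272463-88292482), at 5392.6 and 269 per kb. The third, over the Ugt1a genes of glucuronidation enzymes, was on the same stretch of chromosome 1 and had 210 per kb. The next 3 were at Mnt, the gene of a MAX-binding repressor (2282.1; 520 per kb), Gm20783 (2244.8; 586 per kb) and Crlf2, a cytokine receptor gene (2202.4; 239 per kb). The top 6 held 0.58% of the summed level of all gene-end regions, and 262 regions exceeded a mean value of 1000. No list of regions prone to artefact signal was applied.

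The share of each library's signal at gene ends varied more between libraries than between cell types. It was 21.53% in MPP3 Dnmt3a;Npm1, 19.39% and 27.96% in MPP3 Npm1, 11.87% and 15.4% in MPP3 Dnmt3a, and 17.41% and 32.65% in MPP3 WT. In LT-HSC it was 18.67% and 18.36% in Dnmt3a;Npm1, 9.9% and 7.6% in Npm1, 23.65% in Dnmt3a, and 27.99% and 18.01% in WT. LT-HSC Npm1 was lowest and did not overlap LT-HSC WT. Of the autosomal signal in tested regions alone, gene ends held 50.2% to 64.45%, with a median of 61.05%, and LT-HSC Npm1 was again lowest, at 52.58% and 50.2%.

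**Figure D1:**
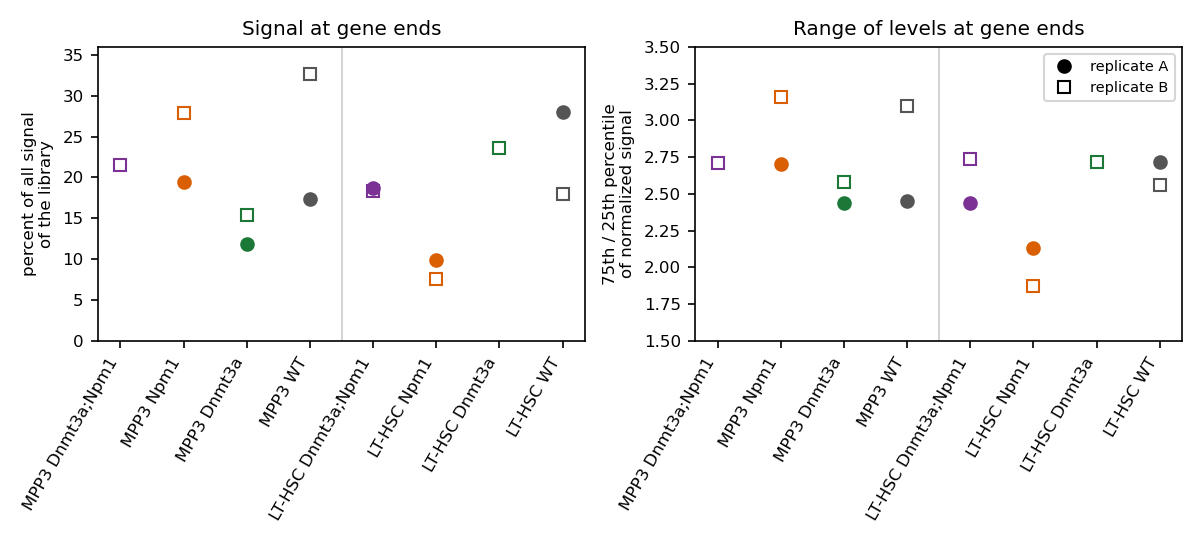
Each point is 1 library; the left axis gives the percent of all its signal that lay in gene-end regions and the right axis the ratio of the 75th to the 25th percentile of normalized signal over the 11910 regions, by cell type and genotype. LT-HSC Npm1 A and B were lowest in both, at 9.9% and 7.6% of signal and ratios of 2.13 and 1.87.

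After normalization, by which each library is divided by 1 factor so that most regions match, the median gene-end signal was close between groups. It was 264 in MPP3 Dnmt3a;Npm1, 270 ± 6.36 in MPP3 Npm1, 261 ± 8.49 in MPP3 Dnmt3a and 270 ± 14.1 in MPP3 WT (SD, n = 2 where an SD is given). In LT-HSC it was 269 in both Dnmt3a;Npm1 libraries, 250 ± 14.1 in Npm1, 276 in Dnmt3a and 273 ± 7.07 in WT. The range of levels differed more than the median. For LT-HSC Npm1 the 75th percentile was 2.13 and 1.87 times the 25th, against 2.72 and 2.56 for LT-HSC WT, and between 2.44 and 3.16 in the 7 MPP3 libraries. The lead of gene ends over other regions, as a difference of log2 medians, was 0.64 and 0.45 for LT-HSC Npm1, against 1.05 and 0.88 in LT-HSC WT. It was 0.66 and 0.81 in MPP3 Dnmt3a, against 0.83 and 1.15 in MPP3 WT.

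Replicates differed less at gene ends than elsewhere, and this went with level. The within-group SD of log2 signal, pooled over the 6 groups of 2 libraries, had a median of 0.34 at gene ends (quartiles 0.26 and 0.46), against 0.44 both inside and outside genes. At equal level the positions were alike. For mean values of 100 to 150 the median SD was 0.51 at gene ends, 0.52 inside genes and 0.5 outside. For 500 or more it was 0.27, 0.27 and 0.29. Only 16.3% of gene-end regions were in the lowest of these classes, against 48.9% inside and 53.0% outside genes. Regions at ends only had a median SD of 0.44, and those at starts only 0.33.

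**Figure D2:**
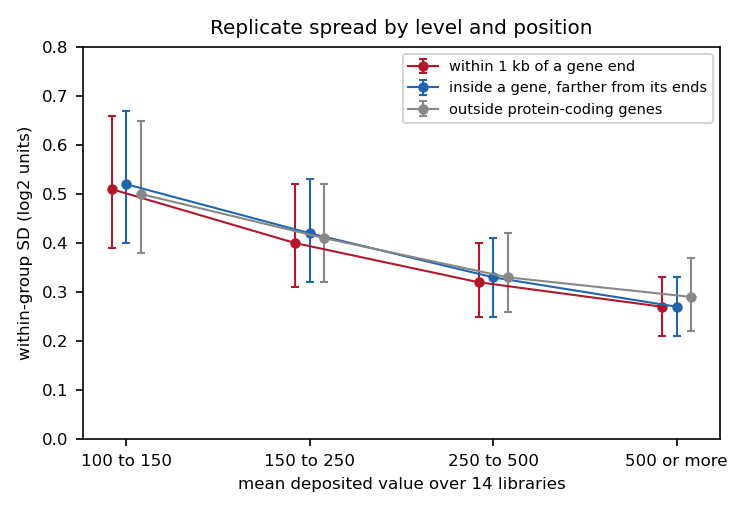
Median within-group SD of log2 normalized signal (bars: quartiles over regions) against the mean deposited value, for gene-end regions, regions inside genes and regions outside genes. The SD was 0.51, 0.4, 0.32 and 0.27 at gene ends in the 4 classes, and the positions lay close together within each class.

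Group by group, the median SD between the 2 libraries at gene ends was 0.15 in MPP3 Npm1, 0.33 in MPP3 Dnmt3a and 0.2 in MPP3 WT. Of the LT-HSC groups, Dnmt3a;Npm1 and Npm1 had 0.27 each and WT had 0.23. The SD between the 8 group means had a median of 0.31, and the SD within groups 0.34. The 2 are not on the same footing. Of the 8 means 6 average 2 libraries, whereas the within-group SD is that of single libraries. Whether groups differ more than replicates cannot be read from these values. A principal component analysis of the gene-end regions placed 32.2% of the variance on its leading axis, with LT-HSC Npm1 at -49.6 and -61.7, MPP3 Dnmt3a at -21.9 and -4.4, and MPP3 Npm1 B and MPP3 WT B at the other end, at 35.4 and 35.6. Cell types did not separate on that axis. On the next axis, with 13% of the variance, the 7 MPP3 libraries lay at 1.4 to 42.1 and the 7 LT-HSC libraries at -46.1 to -0.9, so the cell types did not overlap, although most libraries lay close to 0 and the ends were single libraries, MPP3 Dnmt3a B and LT-HSC Dnmt3a;Npm1 B.

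The steadiest region lay at Tab2 (chr10:7954638-7956997), which encodes an adaptor of the TAK1 kinase, with an SD of 0.047. Its normalized signal was 629.8 in MPP3 Dnmt3a;Npm1, 727.9 and 732.0 in MPP3 Npm1, 650.6 and 645.4 in MPP3 Dnmt3a, and 730.3 and 743.9 in MPP3 WT. In LT-HSC it was 612.9 and 633.1 in Dnmt3a;Npm1, 365.1 and 391.7 in Npm1, 706.9 in Dnmt3a, and 660.4 and 608.9 in WT. LT-HSC Npm1 was lowest, beyond the range of all other libraries. Tnks1bp1, Tle3, a corepressor gene, Get1, a gene of membrane protein insertion, and Spg7, a mitochondrial protease gene, followed with SDs of 0.051 to 0.065.

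The least steady regions had low values. At the end of Slc2a6, a glucose transporter gene (SD 1.647), MPP3 Dnmt3a A had 254.5 and B had 2.338, while the other libraries ranged from 48.75 to 501.2. Adra2b, an adrenergic receptor gene, was at 213.2 and 2.338 in the same libraries (SD 1.62). Ctsg, the cathepsin G gene of granulocytes, was at 171.8 and 2.338 there (SD 1.544), against 162.7 and 137.1 in MPP3 WT. Bcl6b, a repressor gene, and Cacna1g, a calcium channel gene, had SDs of 1.537 and 1.437. For Slc2a6, Adra2b and Ctsg the outlying value was in MPP3 Dnmt3a B, and for Bcl6b, at 4.772, in MPP3 Dnmt3a A.

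Cell types were compared as the mean of 4 genotypes, MPP3 over LT-HSC, with limma fitted to log2 normalized signal over all tested regions and a region was called where the Benjamini-Hochberg adjusted p (two-sided) was under 0.05. Of the 11910 gene-end regions 13 were called, or 0.109%, against 0.41% of all tested regions. Higher in MPP3 were 3 (0.243% of all regions were called higher) and lower were 10 (0.167% of all). This split depended on the processing. It was 5 higher and 13 lower with loess normalization, and 26 and 4 with signal scaled to the library total. With a minimum mean of 50 it was 3 and 1, and with no minimum 3 and 0. Away from gene ends 45 regions inside genes (0.574%) and 45 outside genes (0.923%) were called. The median difference at gene ends was 0.031 on the log2 scale, against 0.014 over all. With all libraries 1432 gene-end regions had an unadjusted p under 0.05. The called count was 1, with 727 at an unadjusted p under 0.05, when the Npm1 groups were dropped from the mean and both LT-HSC Npm1 libraries from the fit, and the difference between positions was not tested. Leaving out single libraries gave 0 to 134, the highest without MPP3 Dnmt3a A (107 without B), 29 without LT-HSC Dnmt3a;Npm1 A, and 0 to 6 without any 1 library of LT-HSC Npm1, LT-HSC WT, MPP3 Npm1 or MPP3 WT.

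The 3 higher regions lay near Lpo and Mpo, near Slc27a3, and near Trem3 and Trem1. The region of smallest p covered the adjoining ends of Lpo, the lactoperoxidase gene, and Mpo, the myeloperoxidase gene (chr11:87803850-87810872). It had 438.5 in MPP3 Dnmt3a;Npm1, 1220 and 1107 in MPP3 Npm1, 1123 and 505.1 in MPP3 Dnmt3a, and 1187 and 851.9 in MPP3 WT. In LT-HSC it had 281.3 and 117.4 in Dnmt3a;Npm1, 581.7 and 691.9 in Npm1, 288.6 in Dnmt3a, and 177.0 and 259.1 in WT. Every genotype was higher in MPP3, and overlap came from the high LT-HSC Npm1 and the low MPP3 Dnmt3a;Npm1 and Dnmt3a B values. The log2 difference was 1.43 (SE 0.21, limma adjusted p = 0.00999).

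The region near Slc27a3, a gene of the fatty acid transport family, lay 974 bp from the end of that gene. Its signal ranged over 120.1 to 222.4 in MPP3 and 15.83 to 85.78 in LT-HSC, with no overlap (log2 difference 1.77, SE 0.33, limma adjusted p = 0.0258). Trem3 and Trem1, which encode receptors of myeloid cells, shared a region with 87.49 to 206.2 in MPP3 and 14.16 to 148.7 in LT-HSC, the highest LT-HSC value being that of Npm1 B (1.53, SE 0.33, limma adjusted p = 0.0466). With the replicate letter as a block this region was at an adjusted p of 0.0532, and no other named region lost its call there.

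Among the lower regions, Obsl1, which encodes an adaptor of the cytoskeleton, shared its region with Inha, the inhibin alpha gene (chr1:75505052-75507387). It had 118.3 in MPP3 Dnmt3a;Npm1, 125.2 and 120.1 in MPP3 Npm1, 175.0 and 204.6 in MPP3 Dnmt3a, and 165.0 and 129.3 in MPP3 WT. In LT-HSC it had 330.6 and 411.5 in Dnmt3a;Npm1, 365.1 and 320.2 in Npm1, 290.1 in Dnmt3a, and 313.0 and 430.6 in WT. All MPP3 libraries were below all LT-HSC libraries (log2 difference -1.24, SE 0.18, limma adjusted p = 0.00999).

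Tcf15, a transcription factor gene active in quiescent stem cells, had 123.1 to 194.9 in MPP3 and 208.3 to 389.8 in LT-HSC (-0.96, SE 0.19, limma adjusted p = 0.0307). Ptpn14, a tyrosine phosphatase gene, had 58.29 to 158.0 and 180.2 to 313.2 (-1.24, SE 0.25, limma adjusted p = 0.0329). Smagp, a small membrane glycoprotein gene (-0.95, SE 0.18), and P3h2, a collagen prolyl hydroxylase gene (-0.91, SE 0.18), were lower without overlap as well. Without the Npm1 groups in the mean, the log2 differences were 1.61 at Lpo and Mpo (limma adjusted p = 0.0427), -1.18 at Obsl1 (0.0731) and -0.96 at Tcf15 (0.128). Only the first of the 8 named regions stayed past the threshold. With no minimum level only Slc27a3 did (1.97, limma adjusted p = 0.0357), and Obsl1 stood at -1.04 (0.705). With the share of signal in tested regions as a covariate, only the Lpo and Mpo region and Obsl1 did (limma adjusted p = 0.0109 and 0.0401).

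Between WT cells alone, MPP3 WT over LT-HSC WT, limma called 0 gene-end regions, and 0% of all tested regions; 354 gene-end regions had an unadjusted p under 0.05, and 0 were called with an untrended prior. The Lpo and Mpo region again had the smallest p (2.21, SE 0.38, adjusted p = 0.168), ahead of Ctsz, a lysosomal protease gene (1.44, SE 0.29), with 675.3 and 522.3 in MPP3 WT and 228.6 and 203.6 in LT-HSC WT. This comparison shares its 4 libraries with the one over genotypes.

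The largest count at gene ends among the 10 comparisons was between LT-HSC Npm1 and LT-HSC WT. There limma called 629 of 11910 regions (5.28%), close to the 4.85% of all tested regions, and 3138 had an unadjusted p under 0.05. The direction differed by position. At gene ends 138 were higher and 491 lower, whereas 2.31% of all tested regions were called higher and 2.54% lower. Inside genes 227 were higher and 90 lower, and outside genes 152 and 55. Median log2 differences were -0.212 at gene ends, 0.209 inside genes and 0.134 outside genes, and -0.011 over all tested regions.

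The split and the count depended on how libraries were put on 1 scale. With factors computed over gene-end regions, 196 were higher and 253 lower, with loess normalization 32 and 13, and with signal scaled to the library total 22 and 6869, where the median of all tested regions was -1.139. With the share of signal in tested regions as a covariate 0 were called and 774 had an unadjusted p under 0.05; the LT-HSC Npm1 shares were 19.48% and 15.67%, against 44.84% and 30.05% in LT-HSC WT. The count was 390 and 67 without LT-HSC Npm1 A and B, 21 and 59 without LT-HSC WT A and B, and with an untrended prior 35, of which 25 were higher and 10 lower. Without LT-HSC WT A and B 17 and 34 of the called regions were higher and 4 and 25 lower. Leaving out MPP3 Dnmt3a A and B, which only share the estimate of the spread, gave 1109 and 1105, and leaving out MPP3 Npm1 A and B gave 307 and 305. Whether the mutation or the lower enrichment of these 2 libraries goes with the differences cannot be told apart.

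**Figure D3:**
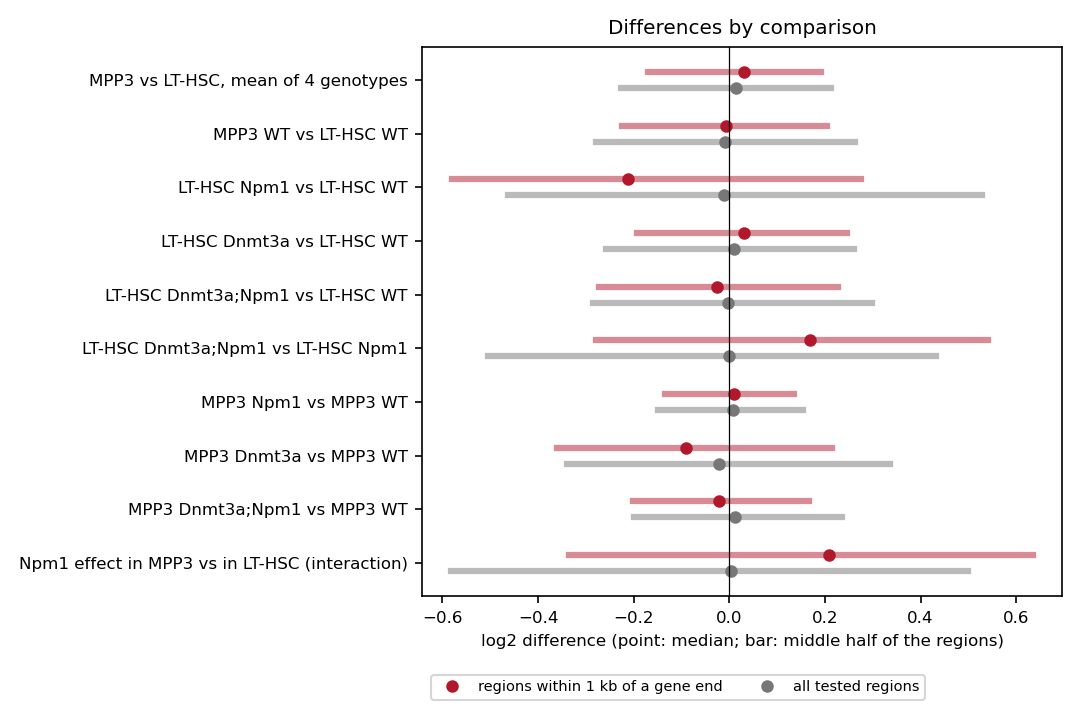
Median log2 difference (points) and the quartiles over regions (bars) in each of 10 comparisons, for gene-end regions and for all tested regions. The medians of gene ends and of all tested regions were 0.209 and 0.003 in the interaction, -0.212 and -0.011 in LT-HSC Npm1 over LT-HSC WT, and 0.168 and 0 in LT-HSC Dnmt3a;Npm1 over LT-HSC Npm1.

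The lower regions were strong promoters and the higher ones weak regions. The 491 lower regions had a median mean value of 620.8 and a median log2 difference of -1.15, 83.5% were at a start, 0.6% at an end only, and their promoters had a median CG ratio of 0.85. Among the 138 higher ones the median value was 145.7 and the median difference 1.84, with 54.3% at a start, 19.6% at an end only and a ratio of 0.58. Regions not called had 295.6, 71.1%, 6.3% and 0.79. The CCAAT box was in 47.9% of 411 windows at lower regions and 27.8% of 54 at higher ones, against 37.9% at all gene ends, and the GC box in 75.7% and 61.1%, against 71.7%.

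Differences followed level when level was taken from the other cell type, whose libraries are no part of the comparison. The minimum level, however, used all 14 libraries, LT-HSC Npm1 and LT-HSC WT included, so these values are not free of that choice. With a minimum mean of 50 the split was 31 higher and 1903 lower, and with no minimum 0 and 280. From the lowest to the highest quartile of signal in MPP3, the median log2 difference in LT-HSC Npm1 over LT-HSC WT was 0.39, -0.04, -0.34 and -0.55. The lowest quartile had 82 regions called higher and 5 lower, and the highest had 6 and 352, or 11.8% lower. Both LT-HSC Npm1 libraries had this slope. In the lowest quartile every LT-HSC library had a positive median against the mean of MPP3, from 0.08 to 0.62. Set against the mean of MPP3, LT-HSC Npm1 A had medians of 0.48 in the lowest and -0.37 in the highest quartile and LT-HSC Npm1 B 0.62 and -0.71, against 0.08 and 0.05 in LT-HSC WT A and 0.22 and -0.04 in LT-HSC WT B. The slope over quartiles was 0.04, -0.02, -0.05 and -0.04 in LT-HSC Dnmt3a;Npm1 over LT-HSC WT.

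The same order held by kind of gene end. Regions at ends only had a median of 0.39, with 27 called higher and 3 lower, regions near 1 start -0.24 (73 and 336), and regions near 2 or more starts -0.48 (2 and 74). These kinds also differed in level, with median mean values of 153.6, 313.0 and 438.1. All gene-end regions of 100 to 150, 150 to 250, 250 to 500 and 500 or more had medians of 0.49, 0.12, -0.3 and -0.56. By promoter CG ratio the median was -0.37 at 0.75 or more (17 higher, 295 lower), -0.28 from 0.5 to 0.75 (14 and 95) and -0.01 under 0.5 (23 and 21). Median mean values of these classes were 396.3, 312.8 and 221.9. Whether the kind of gene end or the CG ratio goes with the differences beyond level was not tested. Loess normalization, which removes differences that follow level, gave 0.23 at ends only, -0.04 near 1 start and -0.12 near 2 or more starts; under the library total all 3 medians were negative.

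**Figure D4:**
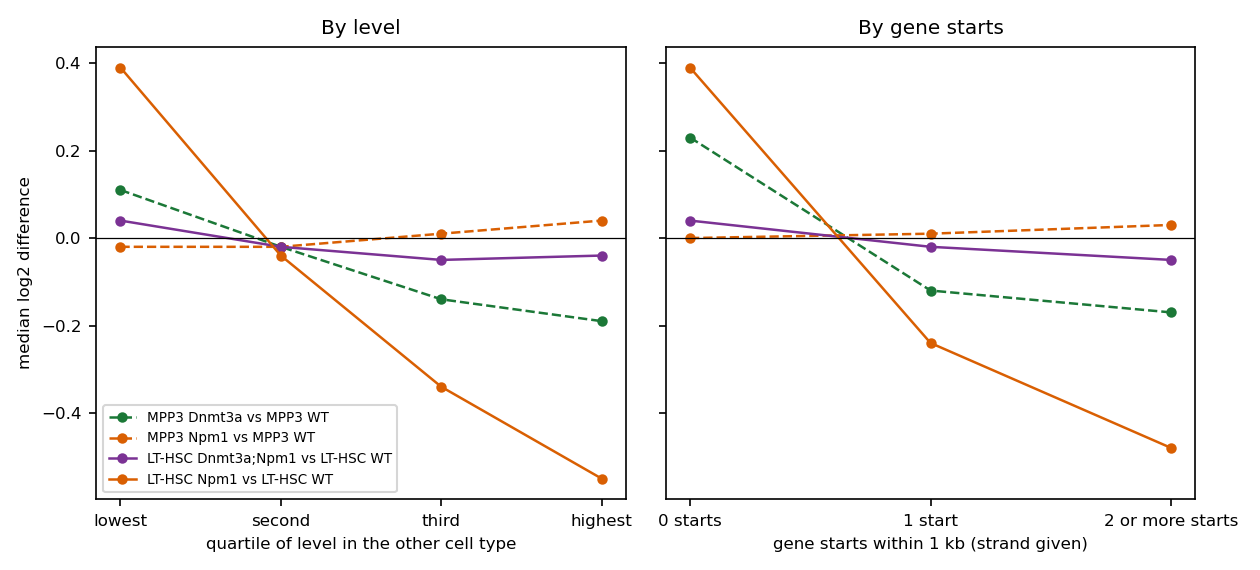
Median log2 difference of gene-end regions in 4 comparisons with WT, on the left by quartile of level in the other cell type and on the right by the number of gene starts within 1 kb. LT-HSC Npm1 over WT runs from 0.39 to -0.55 across quartiles, MPP3 Dnmt3a over WT from 0.11 to -0.19, and MPP3 Npm1 over WT from -0.02 to 0.04.

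Of the lower regions, the smallest p was at the start of Sec62, whose protein helps move proteins into the endoplasmic reticulum (chr3:30792581-30794103), whose promoter is shown above. LT-HSC Npm1 had 90.76 and 188.7 there, against 559.8 and 511.4 for LT-HSC WT. The other 10 libraries had 394.7 to 526.5, so LT-HSC Npm1 was lowest of all. The log2 difference was -2.0 (SE 0.3, limma adjusted p = 0.00356), and -1.98 (adjusted p = 0.417) with the share of signal in tested regions as a covariate.

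Zbed4, a zinc finger gene, had 278.5 and 368.8 in LT-HSC Npm1, against 991.1 and 941.1 in LT-HSC WT (-1.58, SE 0.25, limma adjusted p = 0.00478). Zfp644, a zinc finger gene, had 160.9 and 211.6, against 519.8 and 780.3 (-1.77, SE 0.29, limma adjusted p = 0.0057). N4bp2l2 had 156.8 and 185.9, against 505.2 and 526.1 (-1.57, SE 0.27). At these genes, and at Zbtb5, a zinc finger repressor gene (-1.69, SE 0.3), both LT-HSC Npm1 libraries lay below every other library of the study.

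Among the higher regions, Ifi30, which encodes a lysosomal thiol reductase of antigen processing, had the smallest p (chr8:70763367-70765035, at its end). It had 424.9 and 268.8 in LT-HSC Npm1, against 25.79 and 36.05 in LT-HSC WT, and 38.92 to 156.6 in the other 10 libraries (log2 difference 3.31, SE 0.53, limma adjusted p = 0.00478). Ajap1, an adherens junction gene, had 961.2 and 626.2, against 59.67 and 165.6 (2.91, SE 0.48, limma adjusted p = 0.0057). Ntsr1, the neurotensin receptor gene, had 530.1 and 434.6, against 76.36 and 30.2 (3.21, SE 0.58, limma adjusted p = 0.0112). In all 3, LT-HSC Npm1 was above every other library.

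Aqp5, a water channel gene, was higher in the same way (2.38, SE 0.44), and so was the broad region at the Hjurp start, with 10470 and 10980 in LT-HSC Npm1, against 2706 and 4973 in LT-HSC WT (1.55, SE 0.28, limma adjusted p = 0.0112). With no minimum level, where 0 gene-end regions were called higher and 280 lower, the log2 differences were 1.66 at Ifi30, 1.22 at Ajap1, 1.52 at Ntsr1, 0.69 at Aqp5 and -0.17 at Hjurp, and none of these 5 passed the threshold. The wider Hjurp and Mroh2a region beside it had 26920 and 27870 in the LT-HSC Npm1 libraries and 3651 and 8938 in LT-HSC WT, and 17490 and 9938 in MPP3 Dnmt3a and 11550 and 5019 in MPP3 WT. With the share of signal in tested regions as a covariate, none of the 10 named regions passed the threshold. The log2 differences were then 3.11 at Ifi30, 2.69 at Ntsr1, 1.74 at Aqp5, 1.59 at Ajap1 and 0.72 at Hjurp. At the lower regions they were -1.98 at Sec62, -1.88 at Zfp644, -1.42 at Zbed4, -1.33 at N4bp2l2 and -1.26 at Zbtb5.

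**Figure D5:**
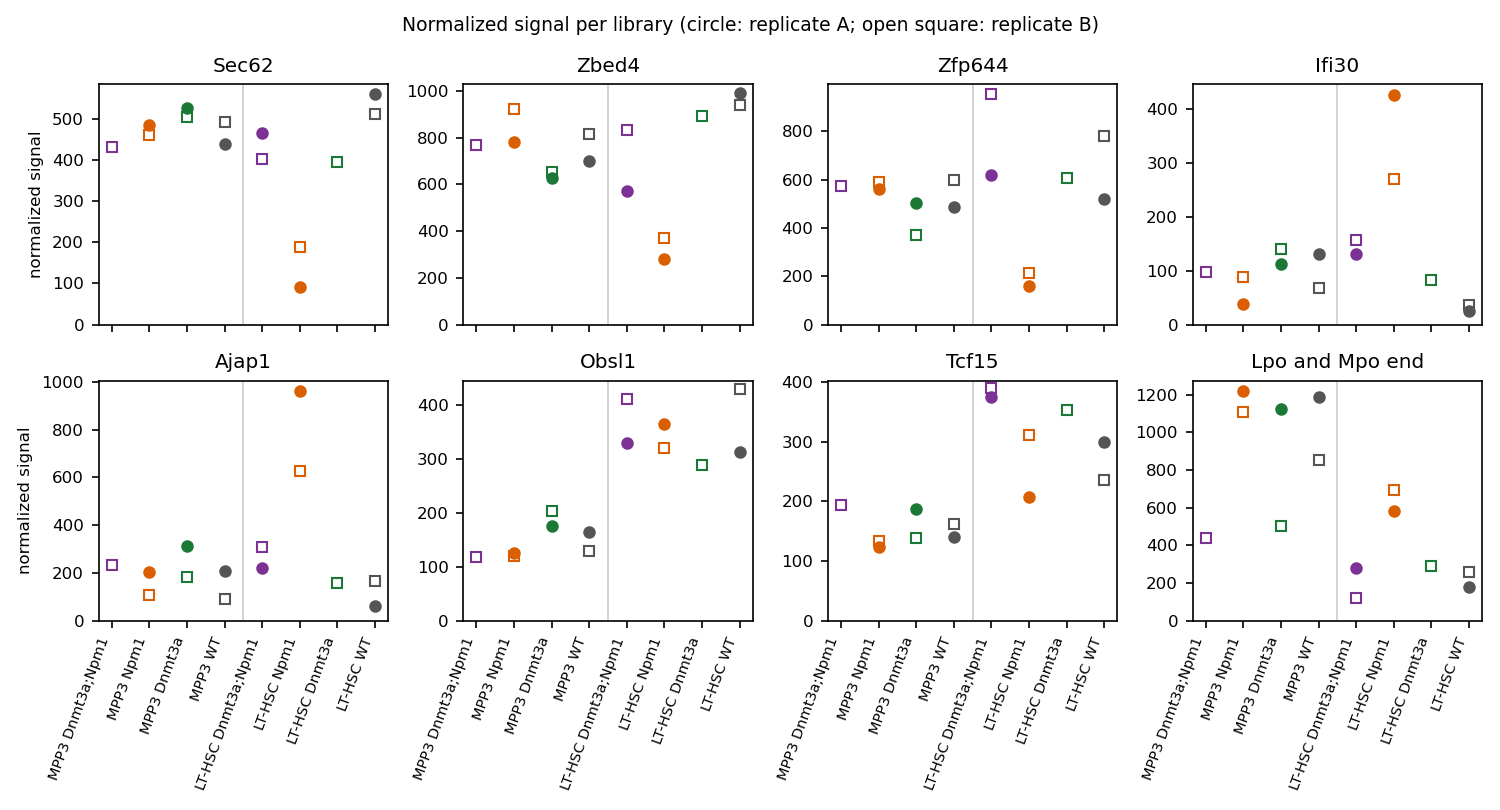
Normalized signal of 8 named gene-end regions in each of the 14 libraries, by cell type and genotype (circles: replicate A; open squares: replicate B). LT-HSC Npm1 lies lowest at Sec62, Zbed4 and Zfp644 and highest at Ifi30 and Ajap1, while Obsl1 and Tcf15 are lower in every MPP3 library than in any LT-HSC library.

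Gene ends of housekeeping families had negative medians in LT-HSC Npm1 over LT-HSC WT with few calls, beside a median of -0.212 and 1.16% called higher and 4.12% called lower over all gene ends. Their median mean values were 282.4 to 398.7, and all gene-end regions with mean values of 250 to 500 had a median difference of -0.3. Whether a family differs from other gene ends of its level was not tested. Cytosolic ribosomal protein genes had 98 regions at 77 of 85 autosomal genes, with a median of -0.45 and 1 called higher and 3 lower. Spliceosome genes had a median of -0.57 over 50 regions (0 and 3), translation initiation factors -0.39 over 45 (1 and 1), and respiratory complex I -0.4 over 39 (0 and 2). Mitochondrial ribosomal proteins stood at -0.35 over 80 regions (0 and 1), and proteasome subunits at -0.31 over 41 (0 and 1). Loess brought these medians to between -0.07 and -0.27, and the library total to between -1.46 and -1.71.

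Single members showed the size of the differences. Srsf7, a splicing factor gene, had 336.2 and 311.7 in LT-HSC Npm1, against 736.8 and 807.6 in LT-HSC WT (-1.24, SE 0.24, limma adjusted p = 0.0121). Srsf2, a splicing factor gene, had 412.6 and 508.9, against 1037 and 1069 (-1.19, SE 0.25). Ndufa6, of complex I, had 156.8 and 225.9, against 397.0 and 551.4 (-1.3, SE 0.29). At all of these LT-HSC Npm1 lay below both WT libraries. Of the 98 ribosomal protein regions 23 were positive, and the 1 called higher was at Rpl12, with 175.3 and 263.1, against 54.11 and 75.99 (1.68, SE 0.46, limma adjusted p = 0.0417), and Eif3g, a translation initiation factor gene, was higher at its end (1.94, SE 0.46).

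Genes of C2H2 zinc finger proteins named Zfp, many of which silence transposable elements, had 268 regions at 241 of 354 genes, with a median of -0.39 and 2 called higher and 13 lower. Their median mean value was 285.2. All gene-end regions of 250 to 500 had a median of -0.3, with 0.221% called higher and 3.14% lower. Zfp317 had 113.5 and 65.76 in LT-HSC Npm1, against 285.7 and 330.3 in LT-HSC WT (-1.78, SE 0.34). Chromatin and DNA methylation genes had a median of -0.58 over 23 regions with 0 called higher and 4 lower. Their median mean value was 535.8. All gene-end regions of 500 or more had a median of -0.56, with 0.223% called higher and 12.4% lower. Whether either list differs from other gene ends of its level was not tested. Of these, Ezh2, the methyltransferase gene of Polycomb, had 317.7 and 326.0, against 683.7 and 681.0 (-1.07, SE 0.26), and Asxl2, a Polycomb-associated gene, 358.9 and 314.5, against 932.0 and 704.3 (-1.26, SE 0.24). No gene-end region at Dnmt1, Dnmt3a or Idh2 reached the minimum level.

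Cell cycle genes had a median of -0.4 over 41 regions (0 higher, 4 lower), among them Cdk1, the mitotic kinase gene (-1.26, SE 0.3), and Ccnd2, a D cyclin gene (-1.05, SE 0.24). Early response genes had a median of -0.31 over 44 regions (0 and 4), among them Klf6 (-1.22, SE 0.26) and Nr4a3 (-1.42, SE 0.31); with loess that median was 0.12. Interferon response genes had -0.34 over 22 regions (0 and 1). Median mean values were 337.3 for the cell cycle list, 450.0 for early response and 268.6 for interferon response. All gene-end regions of 250 to 500 had a median of -0.3, with 3.14% called lower. A difference of these lists from that level was not tested. Hox and Meis genes, known to be highly expressed in leukaemia with mutant NPM1, had a median of 0 over 27 regions, 13 of them positive, and none called; the median was 0.15 with loess and -1.14 under the library total. LT-HSC markers had a median of -0.18 over 9 regions, none called.

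MPP3 and myeloid markers ran the other way. Of their 13 regions 12 were positive, 4 were called higher and none lower, and the median was 1.04. Their median mean value was 162.0. All gene-end regions of 100 to 150 had a median of 0.49 with 3.72% called higher, and those of 150 to 250 had 0.12 with 1.82%. Some regions lay side by side, at Mpo and at Prtn3 and Elane, so the 13 are not separate loci. A difference from gene ends of that level was not tested. Igsf6, a myeloid surface receptor gene, had 204.2 and 280.2 in LT-HSC Npm1, against 67.25 and 84.75 in LT-HSC WT (1.61, SE 0.4, limma adjusted p = 0.0278). The Lpo and Mpo region had 581.7 and 691.9, against 177.0 and 259.1 (1.55, SE 0.38, limma adjusted p = 0.0277). The median was 0.9 with loess and 0.97 with the share of signal as a covariate, under which none was called, and -0.06 under the library total, where all tested regions stood at -1.14. Erythroid and megakaryocyte markers had a median of -0.48, with 1 of 7 regions positive and none called, and niche markers a median of 0.54 over 2 regions, 1 of them called higher. The part of other cells in this was not tested. Sums of the MPP3 and myeloid markers were 4033 and 4011 in LT-HSC Npm1, against 2084 and 2442 in LT-HSC WT, and 3332 to 5255 in MPP3.

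In LT-HSC Dnmt3a;Npm1 the gene ends stood near WT. Over LT-HSC WT limma called 0 gene-end regions and 0.00398% of all tested regions, with 610 gene-end regions at an unadjusted p under 0.05 and 0 called with an untrended prior; the median was -0.025. Without LT-HSC Dnmt3a;Npm1 A 31 were called. Ltb4r2, a leukotriene receptor gene, had the smallest p among positive differences, with 179.4 and 214.9, against 62.2 and 29.23 in LT-HSC WT (2.1, SE 0.45, limma adjusted p = 0.532). On the negative side were Ptgir, the prostacyclin receptor gene, with 117.9 and 67.47, against 239.2 and 362.4 (-1.68, SE 0.34), and Ctbs, a lysosomal chitobiase gene, with 159.3 and 169.9, against 427.8 and 419.9 (-1.34, SE 0.28).

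Over LT-HSC Npm1, the double mutant had 260 gene-end regions called (2.18%, against 1.72% of all tested regions). Of these 227 were higher, where 1.13% of all tested regions were, and 33 lower, where 0.589% were; 2793 had an unadjusted p under 0.05, and the median was 0.168. This comparison shares the LT-HSC Npm1 libraries with the one over WT, so their opposite signs are not independent. The split was 94 higher and 36 lower with factors over gene-end regions, 3 and 5 with loess, and 3468 and 16 under the library total. With the share of signal as a covariate, and with an untrended prior, 0 were called (1182 and 2211 at an unadjusted p under 0.05). Without LT-HSC Dnmt3a;Npm1 A and B the count was 500 and 0, and without LT-HSC Npm1 B 37. It was 64 and 61 without LT-HSC WT A and B, 58 and 56 without MPP3 Npm1 A and B, 721 and 705 without MPP3 Dnmt3a A and B.

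Zfp644 had the smallest p, with 617.9 and 953.7 in LT-HSC Dnmt3a;Npm1, against 160.9 and 211.6 in LT-HSC Npm1 (2.03, SE 0.29, limma adjusted p = 0.00702). Zfp317 had 363.9 and 543.9, against 113.5 and 65.76 (2.31, SE 0.34), and Ppp2r3a, a phosphatase subunit gene, 651.2 and 722.2, against 156.8 and 220.2 (1.86, SE 0.27). Fam76a (1.61, SE 0.26) and the region shared by Agpat1, a lipid synthesis gene, and Rnf5, a ubiquitin ligase gene (1.35, SE 0.22), followed. In these 5, the LT-HSC WT values lay above those of LT-HSC Npm1.

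Of the lower regions, Ptgir had 117.9 and 67.47 in LT-HSC Dnmt3a;Npm1, against 325.9 and 303.1 in LT-HSC Npm1 (-1.77, SE 0.34, limma adjusted p = 0.024). Its LT-HSC WT values, 239.2 and 362.4, bracketed those of Npm1, so the double mutant was the one that stood apart. Epha10, an ephrin receptor gene, had 128.0 and 14.99, against 420.8 and 428.9 (-3.1, SE 0.65). Samd11 and 2900026A02Rik were lower too (-2.19, SE 0.44, and -2.16, SE 0.44). A region at the Mpo start had 68.55 and 6.664, against 183.6 and 128.7 (-2.5, SE 0.62, limma adjusted p = 0.0447). None of the 13 myeloid marker regions was positive (median -1.01). All gene-end regions of 100 to 150 had a median of -0.44 and those of 150 to 250 had -0.14. Whether the marker regions differ from that level was not tested.

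In LT-HSC Dnmt3a, a group of 1 library assumed to vary like the others, limma called 0 gene-end regions and 0% of all tested regions over LT-HSC WT, with 119 at an unadjusted p under 0.05 and 0 with an untrended prior. Ctsz, with 480.2 against 228.6 and 203.6, and Col19a1, a collagen gene, with 5.344 against 45.01 and 101.3, had the smallest p in each direction, both at an adjusted p of 1 (limma).

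MPP3 showed no call in any genotype at gene ends or elsewhere, 0% of all tested regions in each of the 3 comparisons, and 0 with an untrended prior. For MPP3 Npm1 over MPP3 WT 11 gene-end regions had an unadjusted p under 0.05, and the quartiles of the differences were -0.135 and 0.136. For MPP3 Dnmt3a;Npm1, of 1 library, there were 34. For MPP3 Dnmt3a there were 1186, with a median of -0.091 and a smallest adjusted p of 0.0783 (limma). The median of MPP3 Dnmt3a over MPP3 WT was -0.04 and -0.091 without MPP3 Dnmt3a A and B, each leaving 1 library in that group. It was -0.156 without MPP3 WT A and -0.041 without MPP3 WT B, each leaving 1 library in the MPP3 WT group. The MPP3 comparisons share the MPP3 WT libraries.

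The leading MPP3 Dnmt3a regions, none past the threshold, were separated from WT in both libraries. E130308A19Rik had 87.49 and 75.99 in MPP3 Dnmt3a, against 373.3 and 366.5 in MPP3 WT (-2.13, SE 0.36), and 303.4 to 319.3 in the other 3 MPP3 libraries. The end of Dda1, a gene of a ubiquitin ligase complex, had 46.13 and 75.99, against 258.6 and 259.4 (-2.05, SE 0.35). Susd6 had 92.27 and 167.2, against 375.7 and 474.0 (-1.73, SE 0.32). On the positive side Coro1b, a coronin gene, had 272.0 and 371.8, against 78.41 and 65.73 (2.09, SE 0.44), and Hdac5, a histone deacetylase gene, 563.1 and 763.4, against 261.0 and 328.2 (1.15, SE 0.28). The Hoxa5 and Hoxa6 region stood at 223.6 in MPP3 Dnmt3a;Npm1, 62.06 and 59.45 in MPP3 Npm1 and 262.5 and 244.3 in MPP3 Dnmt3a, against 120.5 and 101.9 in MPP3 WT. MPP3 Dnmt3a was as high as the double mutant, whose log2 difference from WT was 0.99 (SE 0.43, limma adjusted p = 1).

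The slope with level was read in MPP3 too, in comparisons that share no library with the LT-HSC ones. They are not fully separate. The quartiles, and the mean each MPP3 library was set against, came from all 7 LT-HSC libraries, LT-HSC Npm1 included. The minimum level used all 14 libraries. From the lowest to the highest quartile of LT-HSC signal, medians were 0.11, -0.02, -0.14 and -0.19 in MPP3 Dnmt3a over WT and -0.02, -0.02, 0.01 and 0.04 in MPP3 Npm1 over WT. By library, set against the mean of LT-HSC, the lowest and highest quartiles had medians of 0.14 and -0.08 in MPP3 Dnmt3a A and 0.07 and 0.04 in MPP3 Dnmt3a B, against 0.05 and 0.05 in MPP3 WT A and -0.12 and 0.31 in MPP3 WT B. Against that shared LT-HSC mean, MPP3 WT B had the steepest slope of the 4 libraries, and MPP3 Dnmt3a B and MPP3 WT A were nearly flat. Of the 491 regions lower in LT-HSC Npm1, 399 (81.3%) were negative in MPP3 Dnmt3a over WT, against 58.1% of all gene-end regions. Their median was -0.26, at a median mean value of 620.8. All gene-end regions of 500 or more had a median of -0.2 in that comparison. Of the 138 regions higher in LT-HSC Npm1, 19 (13.8%) were negative there and the median was 0.59, at a median mean value of 145.7. All gene-end regions of 100 to 150 had a median of 0.23. In MPP3 Npm1 over WT 150 (30.5%) of the 491 were negative, with a median of 0.06, and 70 (50.7%) of the 138. All gene-end regions of 500 or more had a median of 0.05 in MPP3 Npm1 over WT. Both sets were chosen from these data, and a difference from other gene ends of their level was not tested. Over the 11910 regions the LT-HSC Npm1 differences had a correlation of 0.38 with those of MPP3 Dnmt3a, -0.19 with MPP3 Npm1 and 0.06 with MPP3 Dnmt3a;Npm1, as a description, since regions are not replicates and share the 1 fit and their level. The cause of these patterns was not tested. The share of signal in tested regions was 22.29% and 26.58% in MPP3 Dnmt3a and 29.81% and 51.61% in MPP3 WT. With that share as a covariate the median of MPP3 Dnmt3a over MPP3 WT was -0.009, where it was -0.091 without, and 461 gene-end regions had an unadjusted p under 0.05, where 1186 did without; limma called 0 in either fit.

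Whether the Npm1 difference was unlike in the 2 cell types was tested directly, as MPP3 Npm1 over WT minus LT-HSC Npm1 over WT. Limma called 0 gene-end regions and 0% of all tested regions, with 1739 gene-end regions at an unadjusted p under 0.05 and 0 called with an untrended prior, a median of 0.209 and a smallest adjusted p of 0.263. Regions of smallest p included Wdr18, a gene of ribosome assembly (2.0, SE 0.4), Zbed4 (1.74, SE 0.36) and Sec62 (2.02, SE 0.43) on the positive side, and Ifi30 (-3.95, SE 0.75) and Aqp5 (-2.98, SE 0.62) on the negative side. At Sec62 the MPP3 values were 483.9 and 460.1 in Npm1, against 438.9 and 493.2 in WT. So calls in LT-HSC and none in MPP3 do not by themselves show a difference between the cell types.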

How the data were processed

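ATAC-seq signal was deposited as 1 table of 705361 mm10 regions and 14 libraries. The authors' values are whole numbers treated here as scores, since low values step by a library-specific factor and are no raw counts. The submitters' processing notes name R 3.6.0, DiffBind 2.12.0, edgeR 3.26.4 and HOMER 4.10 with no role; aligner, peak caller, read-end shift and filters are not given in the sources used here.

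Libraries were mapped by label. The 25129 regions averaging 100 or more were divided by trimmed-mean factors and fitted as log2(value + 4) with limma 3.58.1 (R 4.3.3; 8 groups, trended robust prior, two-sided Benjamini-Hochberg over all regions). The pseudocount understates differences of low regions. Tables and figures used Python 3.11.15, pandas 2.3.3, numpy 2.4.6 and matplotlib 3.10.9. SDs are over libraries; SEs are moderated. The fit was tested on simulated data. Gene bounds and promoters came from RefSeq GRCm38.p6, with strand for 16456 of 20661 genes.

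The text names, per comparison, up to 5 called regions each way by p, 1 per gene, where the libraries compared did not overlap (overlap was allowed in the mean of genotypes and the interaction). Where under 5 were called, it draws on the called ones and on the 3 leading uncalled ones each way. For level the 6 highest, for spread the 5 smallest and largest SDs, and up to 2 members per list were named. Some items that this rule picks are not reported here. Regions, 19 gene lists and 12 motifs were chosen with earlier results of these data known, so they are no independent evidence. Alternatives covered normalization, minimum level, pseudocount, prior, distance, chromosomes, enrichment, replicate block and each library left out.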

Additional observations from a re-analysis of the deposited data

Results flagged for a closer look

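Of 24 values examined for a library apart from the other 6 of its cell type, 1 was past Dixon's 95% critical value for 7 libraries, 0.568; chance gives about 1 in 20. At the Ptpn14 start, LT-HSC Dnmt3a;Npm1 B had a normalized signal of 313.2, while the other 6 LT-HSC libraries had 180.2 to 221.0, a gap of 0.693 of the whole range. The highest MPP3 value there was 158.0.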

How the results depend on the processing

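Counts of called gene-end regions were 13 for MPP3 over LT-HSC, 629 for LT-HSC Npm1 over WT, 260 for LT-HSC Dnmt3a;Npm1 over Npm1, and 0 in the other 7 comparisons. In that order, enrichment as a covariate gave 2, 0 and 0; an untrended prior 20, 35 and 0; a minimum mean of 50 gave 4, 1934 (31 higher, 1903 lower) and 633; and no minimum 3, 280 (0 higher, 280 lower) and 0 (limma, 6713 at an unadjusted p under 0.05 for the last). The library total gave 30, 6891 and 3484, plus 2 for MPP3 WT over LT-HSC WT and 264 for MPP3 Dnmt3a over WT. Loess gave 45 and 8 for the LT-HSC Npm1 comparisons and 1 for MPP3 Dnmt3a, where no minimum gave 2. Factors over gene-end regions gave 130 for the double mutant over Npm1. For MPP3 over LT-HSC, starts alone gave 6 and the mean of 3 genotypes, chosen after seeing the data, 1. The cause was not tested.

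Leaving out 1 library gave 0 to 134 for MPP3 over LT-HSC, 0 to 1 between WT cells, 21 to 1109 for LT-HSC Npm1, 0 to 31 for LT-HSC Dnmt3a;Npm1 over WT, 0 to 721 over Npm1, 0 to 163 for MPP3 Dnmt3a and 0 to 4 for the interaction. LT-HSC Dnmt3a;Npm1 over WT reached 31 without its replicate A and 1 without LT-HSC WT A, and the interaction 4 without MPP3 WT B. Leaving out a lone library gives no value for its comparisons.

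Deviations of same-letter replicates from their group means had correlations of -0.243 to 0.453 over 15 pairs of groups, with a median of -0.0244. Of these pairs 2 were over 0.1. Pairs of the same genotype were not read apart, so this does not show whether the letters pair the libraries. With the letter as a replicate block the counts were 10, 567 and 237. The Hjurp start reversed to -0.17 with no minimum. The median within-group SD was 0.345, and 0.506 under the library total. With read depth not given and 1 or 2 libraries a group, a count of 0 does not show that accessibility was equal.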
